A study of Homo sapiens with 14 samples.

Results

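RAB proteins form the largest branch of the Ras superfamily of small GTPases. Each RAB switches between a GTP-bound active form and a GDP-bound inactive form, and the active form sits on the membrane of a particular organelle, where it recruits effectors that bud, move, tether and fuse vesicles. In breast cancer cells such as MDA-MB-231, RAB-driven secretion and recycling of receptors are studied for their part in motility and invasion. The RAB genes were taken from the count table as every symbol made of RAB, a number and at most 1 further letter. This gave 62 of 58434 symbols, and 45 of them had at least 50 counts in 2 or more of the 4 total mRNA libraries. The 45 are described here. The rule used no measured value other than these counts, though the family was chosen with earlier results of these data known.

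The study asked which mRNAs need DAP5 (gene EIF4G2), a relative of the initiation factor eIF4GI that lacks the eIF4E binding site, to be loaded on polysomes. MDA-MB-231 is an established line of triple-negative human breast cancer. Stable lines carried a doxycycline-inducible construct for either a non-silencing shRNA (shNSi, NS in the labels) or an shRNA against DAP5 (shDAP5). All cultures of both lines received 1 µg/ml doxycycline for 6 days, and 1 targeting construct was used, so other targets of that shRNA cannot be told apart from DAP5. Cytoplasmic lysates were run on sucrose gradients, and RNA was sequenced from total mRNA, light polysomes (few ribosomes per mRNA) and heavy polysomes (many ribosomes) of 2 cultures a line, with a moderate pool for shNSi cultures as well, 14 libraries in all. The shDAP5 light libraries bore the code used for the shNSi moderate pool and were taken as light by title. Every light comparison between the lines rests on that reading. Those titled total polysome for shDAP5 were read as total mRNA, so every total mRNA and translation efficiency value rests on this as well.

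Of the 17 RAB genes below the count minimum, 1 had no count in any of the 14 libraries. Just inside the minimum was RAB3A with total mRNA counts of 63 and 57 in shNSi and 69 and 50 in shDAP5 cultures. RAB43 was also just inside, with 65 and 32 counts against 50 and 35. Just outside were RAB37, with 14 and 13 against 63 and 34, and RAB17, with 4 and 2 against 51 and 4. All 45 reported genes passed on libraries of both lines, so none was kept through 1 group alone.

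Most RAB proteins end in cysteines to which geranylgeranyl lipids are attached, and this anchor lets the protein cycle between membrane and cytosol. The ends of the coding sequences are shown for 3 of the 4 paralog pairs whose members differed most in their change in heavy translation efficiency (RAB2A and RAB2B are not printed), since the proteins of a pair share much of their sequence and function. Each is the last 18 bases, stop codon included, of the GENCODE v29 transcript (GRCh38, sense strand, 5′ to 3′), with cysteine codons in capitals.
RAB3A: caggacTGCgccTGCtga
RAB3D: agcagcTGCagcTGCtag
RAB22A: aagcggagcTGCTGCtga
RAB31: agccgccggTGCTGTtga
RAB32: aaatcccagTGTTGCtga
RAB38: ggcTGTgccaaatcctag
Both members of the RAB3A and RAB3D pair end in Cys-X-Cys, RAB22A, RAB31 and RAB32 end in adjacent cysteines, and RAB38 carries 1 cysteine set back from the end. Among the 45 RAB genes, 36 had 2 cysteine codons among the last 5 codons and 9 had 1.

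The bases around the start codon are where a scanning ribosome decides to begin. They are shown for the 3 RAB mRNAs with the highest change in heavy translation efficiency (RAB32, RAB24 and RAB3A) and the 3 with the lowest (RAB23, RAB22A and RAB2B), from 12 bases before the ATG, which is in capitals, to 9 after it.
RAB32: gccgcagcgctcATGgcgggcgga
RAB24: ggccccgggagcATGagcgggcag
RAB3A: gtgcagggcaagATGgcatccgcc
RAB23: tcagctccaaaaATGttggaggaa
RAB22A: ggctcccgggccATGgcgctgagg
RAB2B: ggacgcgacaccATGacttatgct
A purine at the third base before the ATG was present in 40 of 45 RAB mRNAs (88.9%) and in 86.1% of 12131 genes, and a G directly after the ATG in 26 (57.8%) against 52.8%. Of the 6 mRNAs shown, only RAB32 lacks that purine.

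The libraries held 25899838 to 30795910 counts, and replicate libraries had a Pearson's r of 0.970 to 0.993 in log2 CPM across 16235 genes, which are not independent. EIF4G2 itself was at 1392 and 1359 CPM (counts scaled to library size with TMM factors) in shNSi and 526 and 730 CPM in shDAP5 total mRNA, a log2 change of -1.11 (SE 0.18, edgeR quasi-likelihood test, adjusted p = 0.0172), which without shDAP5 culture 1 was -0.90 (adjusted p = 0.680, edgeR). The call was also lost with library size alone (adjusted p = 0.0501, edgeR), with limma (0.107) and with all 14 libraries in 1 fit (0.443, edgeR). VIM, CD44, EGFR and AXL, which mark this line, were present in every total mRNA library, and all 4 had log2 changes below 0 in shDAP5 cells without passing the test, at -1.14 (CD44), -0.73 (AXL), -0.61 (EGFR) and -0.34 (VIM) and adjusted p-values of 0.0584 to 0.457 (edgeR). ESR1 and CDH1 were near 0, PGR was at 0 and EPCAM was at 3.69 to 4.94 CPM. Of the markers of other cell types reported here, PTPRC, CD3E, CDH5 and DCN were at or near 0 and COL1A1 was at 16.6 to 32.3 CPM. The TMM factors of the shNSi heavy libraries, 0.763 and 0.702, stood below the 0.899 to 1.16 of the other libraries.

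In total mRNA of shNSi cells, the RAB mRNAs differed widely in level per kilobase of coding sequence. RAB7A, which drives late endosomes to fuse with lysosomes, was highest, with 681 and 613 CPM per kb in the 2 cultures. RAB1B, which carries vesicles from the endoplasmic reticulum to the Golgi, followed with 596 and 591. The ranges of these neighbours did not overlap, but they lay within 1.2-fold of each other. RAB8A, a GTPase of exocytosis and cilium formation, came next with 238 and 263 CPM per kb. RAB43, a Golgi RAB, was lowest with 3.38 and 1.78, next to RAB3A, a RAB of regulated exocytosis best known at synapses, with 3.15 and 3.06, and these last ranges overlapped. Per kilobase of whole transcript RAB7A (189.5 and 170.3 CPM) and RAB1B (180.0 and 178.5 CPM) were again highest, and their ranges overlapped.

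In total mRNA the log2 changes of the RAB mRNAs ran from -0.64 to 0.54, and no change was called at 2 cultures a line. None of the 45 passed the adjusted threshold of 0.05, as against 0.354% of 14992 genes tested, and DESeq2 and limma also called 0. At an unadjusted p under 0.05, 1 was higher and 1 lower, where 4.99% and 7.01% of all genes were. The median log2 change of the RAB mRNAs was 0.07, beside 0.01 over all genes, and 28 lay above 0 (51.7% of all genes). With 1 culture left out the median ran from 0.0068 to 0.079, and 24 to 27 lay above 0. Both shDAP5 cultures were above both shNSi cultures for 8 RAB mRNAs and below for 9, against 20% and 22.2% of all genes. RAB15, linked to receptor recycling, had the lowest value, with 31.1 and 42.1 CPM in shNSi and 21.5 and 24.6 CPM in shDAP5 cultures. Its groups did not overlap, and its log2 change was -0.64 (SE 0.22, adjusted p = 0.217, edgeR). RAB33B, a Golgi RAB that also acts in autophagy, had the highest, 0.54 (SE 0.27), followed by RAB36 at 0.52 and RAB3D, a RAB of secretory granules, at 0.51. In these bulk lysates, fewer cells holding an mRNA and less of it per cell cannot be told apart.

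On heavy polysomes the RAB mRNAs lay higher in shDAP5 than in shNSi cells, a direction that depended on the control pool and on coding length. Of the 45, 43 had a log2 change above 0, where 54% of 14270 genes did, and the median was 0.54 beside 0.09. The median was -0.13 under an offset for coding length (17 of 45 above 0, 0 called higher and 1 lower), -0.23 with the shNSi moderate pool as control (9 above 0, 0 called) and 0.040 with heavy and moderate summed (26 above 0, 0 called). Of all genes 50.2% lay above 0 and 12.1% were called under the offset, 51.9% and 0.344% with the moderate pool, and 48.4% and 2.77% with the summed pools. By the test 7 rose at an adjusted p under 0.05 (edgeR) and 0 fell, while 14.2% of all genes rose and 16.7% fell. The share of RAB mRNAs that rose, 15.6%, was near that of all genes. Unadjusted, 15 were higher and 0 lower, against 20.8% and 21.2% of all genes. Both shDAP5 cultures were above both shNSi cultures for 19 RAB mRNAs and below for 1, where the shares of all genes were 29% and 37%.

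The 7 came from several trafficking steps. RAB32, which sends cargo to lysosome-related organelles and acts at mitochondria, had 57.2 and 52.3 CPM in shNSi heavy polysomes and 79.4 and 115 CPM in shDAP5. The shDAP5 cultures were both above the shNSi cultures, and the log2 change was 1.02 (SE 0.33, adjusted p = 0.0119, edgeR). RAB4A, which runs the fast recycling route from early endosomes to the surface, had 21.5 and 19.8 CPM against 33.8 and 38.6 CPM. Again the groups were apart, with a log2 change of 0.99 (SE 0.34, adjusted p = 0.0156, edgeR).

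RAB20, of the maturing phagosome, had 21.1 and 17.9 CPM in shNSi and 31 and 33.7 CPM in shDAP5 heavy polysomes (log2 change 0.91, SE 0.34, adjusted p = 0.0280, edgeR). RAB33B had 7.70 and 4.45 against 13.6 and 7.99 CPM (1.01, SE 0.38, adjusted p = 0.0320, edgeR), so the lower shDAP5 culture lay only just above the higher control. RAB36, linked to the placing of lysosomes in the cell, had the highest fitted change of the 45, with 3.45 and 4.12 against 5.88 and 7.91 CPM (1.05, SE 0.41, adjusted p = 0.0369, edgeR). RAB5B, which with RAB5A and RAB5C makes early endosomes fuse, had 26.1 and 13.1 against 40.6 and 22.4 CPM, and its groups overlapped (0.86, SE 0.34, adjusted p = 0.0434, edgeR). RAB9A, which returns receptors from late endosomes to the trans-Golgi, had 23.5 and 15.8 against 32.5 and 28.8 CPM (0.82, SE 0.34, adjusted p = 0.0498, edgeR). The calls of RAB33B, RAB36 and RAB5B were lost in both DESeq2 (adjusted p = 0.0798, 0.0649 and 0.133) and limma (adjusted p = 0.0824, 0.0747 and 0.0813), and that of RAB9A in DESeq2 (adjusted p = 0.0796). In limma RAB36 (0.72) lay below RAB32 (1.09). Under an offset for transcript length, added after the data were seen, the calls of RAB32 (0.24, adjusted p = 0.522, edgeR), RAB20 (0.37, adjusted p = 0.320, edgeR) and RAB9A (0.58, adjusted p = 0.157, edgeR) were lost. It called 8 RAB mRNAs (17.8%, beside 20.8% of all genes), with a median of 0.50.

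At the lower end, RAB15 had a log2 change of -0.38 (SE 0.34), RAB2B, of the Golgi, -0.07 (SE 0.35) and RAB10, which delivers glucose transporters and other cargo to the surface, 0.03 (SE 0.34). Values at 10 or fewer CPM, such as those of RAB36, rested on few counts (74 and 87 in the shNSi heavy libraries). Leaving out any 1 of the 4 cultures reduced the count of called RAB mRNAs from 7 to between 0 and 2, and 33 to 44 of 45 lay above 0. The count was 2 without shNSi culture 1 (23.7% of all genes called), 0 without shNSi culture 2 (14.1%), 1 without shDAP5 culture 1 (19.9%) and 0 without shDAP5 culture 2, where 0.0134% of all genes were called. RAB4A shares exon sequence with SPHAR on the same strand and RAB5B with a gene on the opposite strand, and how such reads were counted is not given in the sources used here.

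Translation efficiency, the ratio of polysome to total mRNA in the same culture, was also mostly above 0 in change. It rests on the same 4 heavy libraries, so it is no independent showing, and its median was -0.20 (17 of 45 above 0) under the coding length offset and -0.27 (5 of 45) with the shNSi moderate pool as control. In heavy polysomes 43 of 45 RAB mRNAs had a log2 change in this ratio above 0 (54.4% of 15374 genes), with a median of 0.44 beside 0.09. By the test 2 rose and 0 fell, whereas 4.85% of all genes rose and 8.23% fell. Unadjusted, 9 were higher and 0 lower, against 13.5% and 16.2%. Both shDAP5 cultures were above both shNSi cultures for 18 and below for 2, against 26.2% and 33.3% of all genes. The median ratio of the 45 was 0.06 and -0.27 (log2) in the shNSi cultures and 0.29 and 0.10 in the shDAP5 cultures, so the lower shDAP5 median lay above the higher shNSi one by little.

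RAB32 had the highest change in this ratio. Its log2 heavy-to-total ratio was -0.96 and -0.86 in shNSi and -0.07 and 0.44 in shDAP5 cultures, a change of 1.24 (SE 0.34, adjusted p = 0.0153, edgeR). RAB24, an atypical RAB of autophagy, had -0.89 and -0.82 against -0.20 and 0.36, a change of 1.08 (SE 0.38, adjusted p = 0.0484, edgeR). Both calls were lost under a replicate block (adjusted p = 0.0579 for RAB32 and 0.101 for RAB24, edgeR), and of 16 alternatives RAB32 passed in 6 and RAB24 in 3, with RAB24 lost in DESeq2 (0.0919) and limma (0.0911). In both genes the 2 control cultures lay close together and below both DAP5-depleted cultures. RAB24 shares exons with MXD3 on the same strand, and its heavy polysome change alone, 0.97, did not pass (adjusted p = 0.0505, edgeR).

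RAB3A came next with -0.44 and -0.61 against 0.18 and 0.51, a change of 1.00 (SE 0.47, adjusted p = 0.145, edgeR) on 28 to 78 counts in the heavy libraries. At the other end RAB2B changed by -0.28 (SE 0.35) and RAB22A, of early endosome sorting, by -0.22 (SE 0.33), and RAB23, a brake on Hedgehog signalling, by 0.05 (SE 0.36). For 1 gene with 2 cultures a line, the smallest two-sided p of an exact permutation is 0.333. Leaving out 1 culture changed the count of called RAB mRNAs from 2 to 0 without shNSi culture 1, shNSi culture 2 or shDAP5 culture 2, where 3.59%, 0.025% and 0.27% of all genes were called, or to 6 (13.3%) without shDAP5 culture 1, where 28.5% were. The plot of heavy-to-total ratios by culture shows all 45.

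**Figure D1:**
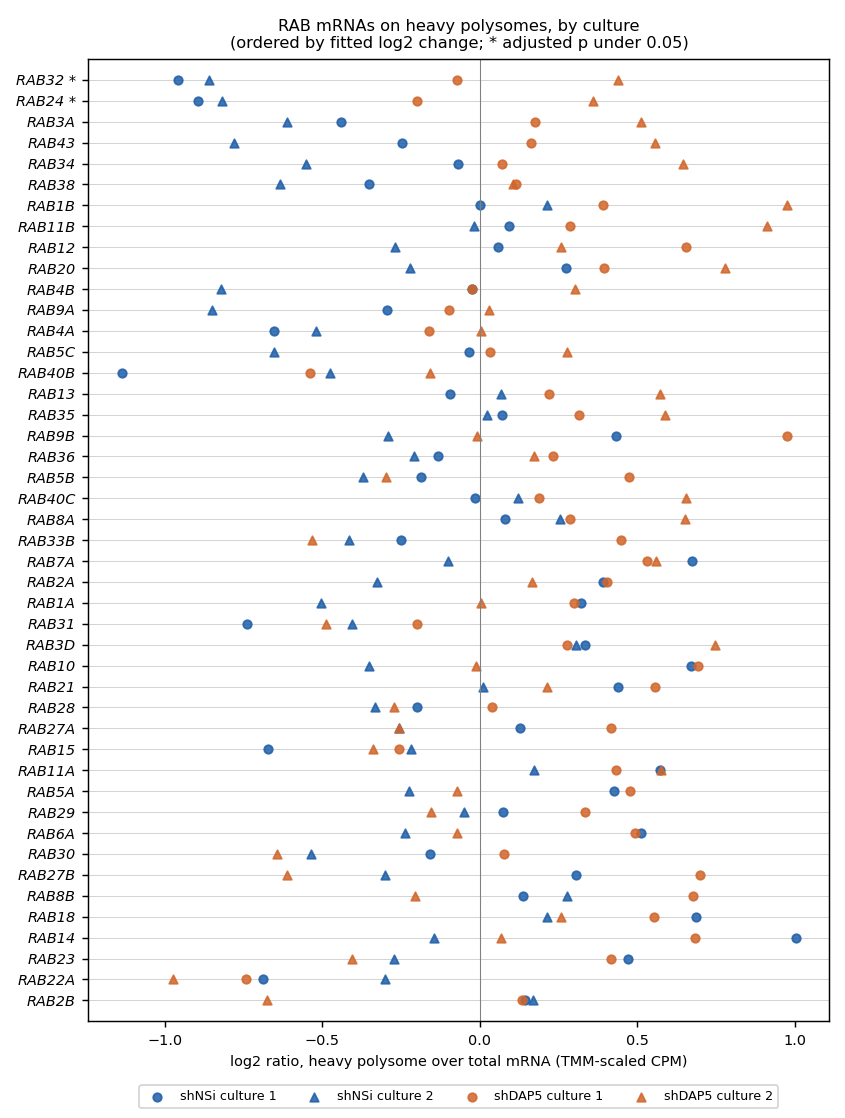
Heavy polysome to total mRNA ratio on the log2 scale (TMM-scaled CPM, horizontal axis) of 45 RAB genes, 1 row each, in 2 shNSi (blue) and 2 shDAP5 (orange) cultures, ordered by the fitted change. Both orange points lie right of both blue points in 18 rows, among them RAB32 and RAB24 (starred), and left of them in 2 rows, RAB22A and RAB2B.

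By trafficking step, every group of RABs had a median above 0 in heavy translation efficiency as reported, a direction that the 45 together lost under the coding length offset (median -0.20, 17 above 0) and with the shNSi moderate pool as control (-0.27, 5 above 0). In heavy translation efficiency the 8 late endosome, lysosome and autophagy RABs had a median log2 change of 0.69, with 8 of 8 above 0 and both called genes, RAB32 and RAB24. The 7 recycling RABs had 0.55 (7 of 7 above 0), the 9 RABs of the endoplasmic reticulum to Golgi route 0.39 (8 of 9), the 7 early endosome and phagosome RABs 0.37 (6 of 7), and the 8 exocytosis RABs 0.33 (8 of 8). The 6 other RABs had 0.51 (6 of 6). Over all genes 54.4% lay above 0 and 4.85% were called higher. Of the 45 RABs 43 lay above 0 and 2 were called higher (4.44%), near the share of all genes called. These differences between groups were not tested.

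On light polysomes the RAB mRNAs had a median a little below 0, without any call, and this direction turned without shNSi culture 2 (median 0.12, 26 of 45 above 0) and under the coding length offset (0.011, 23 of 45). Of the 45 RAB mRNAs 0 passed the adjusted threshold, as did 0% of 15529 genes, by edgeR, and DESeq2 and limma called 0 RAB mRNAs too. Unadjusted, 1 was higher and 2 were lower, where 3.39% and 5.17% of all genes were. The median log2 change was -0.13 beside -0.01, and 16 of 45 lay above 0, against 49.5% of all genes. RAB4B, of endosome recycling, had 5.55 and 7.22 CPM in shNSi and 4.26 and 3.18 CPM in shDAP5 light polysomes (-0.78, SE 0.37). RAB11B, of the slow recycling endosome, had 124 and 121 against 91.8 and 53.4 CPM (-0.76, SE 0.32). RAB1B had 376 and 405 against 278 and 191 CPM (-0.74, SE 0.32).

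The groups did not overlap in these 3 genes, which are among 13 RAB mRNAs lower in both shDAP5 cultures (19.9% of all genes), with 9 higher in both (21.6%), and their adjusted p-values were 0.571 to 0.587 (edgeR). The highest values were those of RAB33B, with 10.3 and 7.01 against 15 and 14.3 CPM (0.76, SE 0.31), RAB36 (0.68, SE 0.36) and RAB22A (0.57, SE 0.32). Light translation efficiency likewise gave 0 called RAB mRNAs by edgeR, DESeq2 and limma, as it gave 0% of 15967 genes, with 0 higher and 2 lower unadjusted (2.21% and 3.01% of all genes), 19 above 0 (51%) and a median of -0.05. That median was 0.068 (27 above 0) under the coding length offset, 0.018 (23) without shNSi culture 2 and 0.0049 (23) without shDAP5 culture 1. RAB11B (-0.67), RAB4B (-0.65) and RAB1B (-0.63) were again lowest, and RAB22A (0.22), RAB33B (0.24) and RAB30, of the Golgi (0.26), highest. Light and heavy efficiency share the total mRNA libraries.

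The light comparison moved with each control culture. Without shNSi culture 1, 14 RAB mRNAs (31.1%) passed in light polysomes, 6 higher and 8 lower, where 28.9% of all genes passed, among them RAB30 at 1.04, RAB33B at 1.04, RAB4B at -0.98 and RAB7A at -0.86. Without shNSi culture 2 there were 2 (4.82% of all genes). With the shNSi moderate pool as control in place of light, 3 rose and 7 fell, from RAB22A at 1.69 to RAB1B at -1.57. That was 22.2% of the RAB mRNAs beside 25.5% of all genes. The libraries compared there bore the same code. The heat map of fitted changes shows the 5 comparisons side by side.

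**Figure D2:**
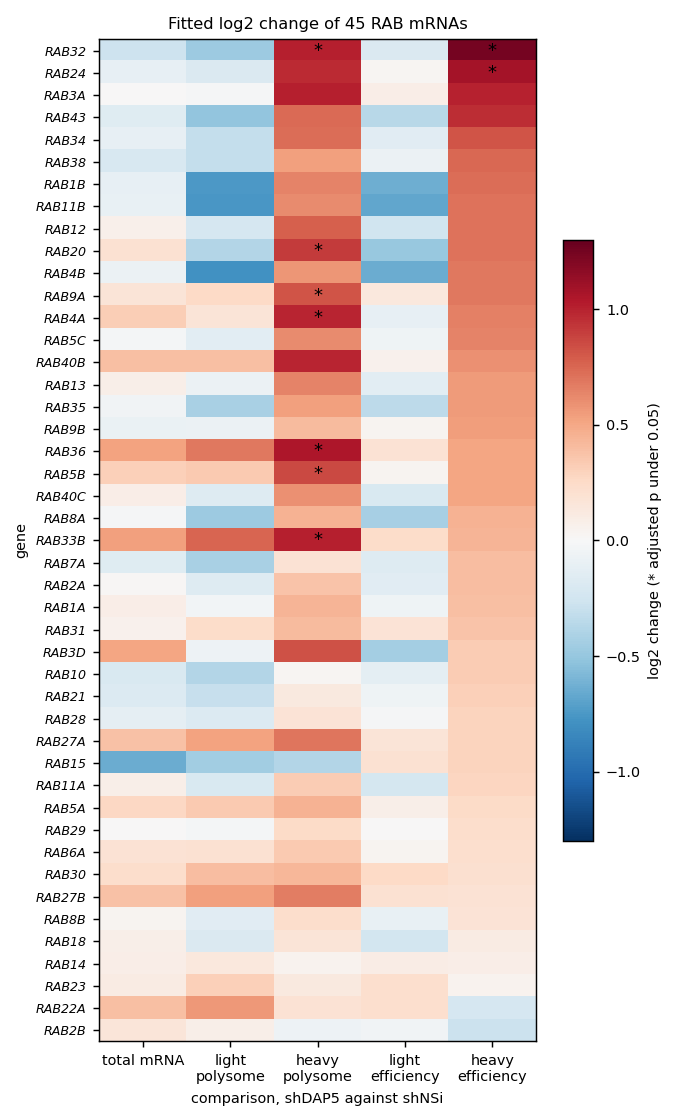
Fitted log2 change, shDAP5 against shNSi (colour scale, red higher and blue lower), of 45 RAB mRNAs (rows) in 5 comparisons (columns), with stars where the adjusted p is under 0.05. The heavy polysome and heavy efficiency columns are red in 43 of 45 rows each, with 7 and 2 stars, and the other columns hold no star.

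RAB mRNAs are short in coding sequence and varied in everything else. Their coding sequences ran from 585 bases (RAB22A) to 1002 bases (RAB36) with a median of 648, and all 45 were below the median of 1416 bases over 12485 genes with a coding length. A short coding sequence has room for few ribosomes. Their whole transcripts ran from 1173 bases (RAB4B) to 15546 bases (RAB21), with a median of 3272 near the 3217 of all genes. The spread came from the 3′ UTR, which ran from 279 bases in RAB24 to 14612 in RAB21, a RAB of endocytosis. GC content of the transcript ran from 35.9% (RAB27B, of secretory lysosomes) to 64.4% (RAB40C, which links to ubiquitin ligases).

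Over all genes, the change in heavy translation efficiency fell with coding length (Spearman's rho -0.71, Pearson's r -0.67, 12485 genes, a description across genes, which share libraries and are not independent). When each library was given an offset for coding length, rho became -0.02. The RAB median moved from 0.44 to -0.20, with 17 of 45 above 0. The offset was fitted to remove whatever goes with coding length, so a rho near 0 and a downward move of short coding sequences were set in advance. Under it 0 RAB mRNAs rose and 1 fell (2.22%, beside 4.22% of all genes called), RAB22A at -0.90 (adjusted p = 0.0425, edgeR). RAB32 remained the highest at 0.64 (adjusted p = 0.134, edgeR). In heavy polysome mRNA the offset gave a median of -0.13, 17 of 45 above 0, and 1 call, RAB15 at -1.09 (adjusted p = 0.0386, edgeR), where 12.1% of all genes were called. An offset for transcript length instead, chosen after the data were seen, left the median of heavy translation efficiency at 0.46 with 41 of 45 above 0, and called RAB5B, RAB21 and RAB30 (6.67%, beside 19.1% of all genes) in place of RAB32 and RAB24. The position of the family above other genes went with its short coding sequences, and whether length caused it was not tested.

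Among the RAB mRNAs themselves, which span a narrow range of coding lengths, the change in heavy translation efficiency had a rho of 0.16 (r 0.17) with coding length, and of 0.33 (r 0.37) under the coding length offset (n = 45, genes that share libraries). In heavy polysome mRNA these were 0.39 (r 0.39) and 0.50 (r 0.56). The change in heavy translation efficiency fell with 3′ UTR length (rho -0.67, r -0.67) and with transcript length (rho -0.67, r -0.63), and rose with GC content of the coding sequence (rho 0.67, r 0.60) and of the transcript (rho 0.70, r 0.64). Over all genes the same measures gave rho of -0.22 for the 3′ UTR, -0.55 for transcript length, 0.26 for coding GC and 0.25 for transcript GC. In heavy polysome mRNA alone the RAB values were -0.34 for the 3′ UTR, -0.32 for transcript length and 0.41 for transcript GC (-0.18, -0.49 and 0.20 over all genes), and in total mRNA, which the ratio divides by, 0.40, 0.41 and -0.36. Under the coding length offset the values for RAB mRNAs were -0.61 for the 3′ UTR and 0.71 for transcript GC. RAB27B, lowest in transcript GC, had log2 heavy-to-total ratios of 0.70 and -0.61 in shDAP5 cultures 1 and 2. RAB40C, highest in transcript GC, had 0.19 and 0.65. No rho was computed by culture, so how far these trends rest on 1 shDAP5 culture was not tested. The 22 RAB mRNAs with the shorter transcripts had a median of 0.67, from -0.28 to 1.24, and the 23 with the longer ones 0.29, from -0.22 to 0.96.

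In light polysome mRNA the log2 change rose with transcript length (rho 0.48, r 0.47) and fell with transcript GC (rho -0.51, r -0.52, n = 45), where rho over all genes was 0.16 and -0.27. Of the 22 shorter transcripts 4 lay above 0, with a median of -0.20, and of the 23 longer ones 12, with a median of 0.14. RAB11B and RAB1B, with GC contents of 63.5% and 61.1% and 3′ UTRs of 876 and 1254 bases, were low in light polysomes (-0.76 and -0.74) and high in heavy efficiency (0.71 and 0.72), though near the median of the 45 in heavy polysome mRNA (0.62 and 0.64 beside 0.54), and RAB22A, at 40.2% GC with a 3′ UTR of 7804 bases, was high in light and low in heavy efficiency. RAB33B (0.76 in light and 1.01 in heavy polysomes) and RAB36 (0.68 and 1.05) were high in both.

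**Figure D3:**
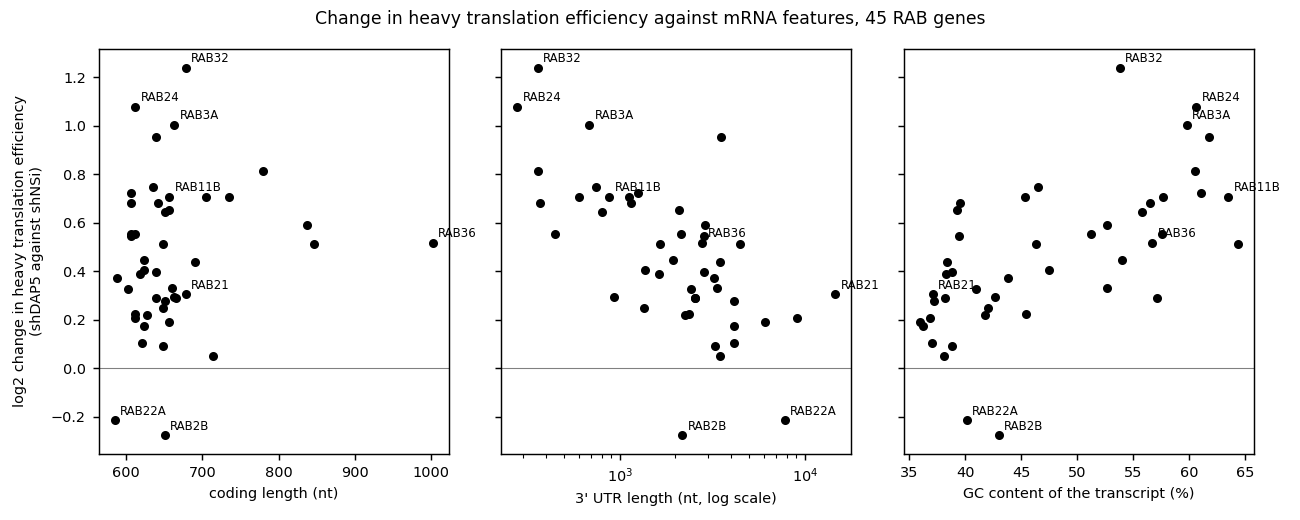
Log2 change in heavy translation efficiency (vertical axis, shDAP5 against shNSi) of 45 RAB mRNAs against coding length in bases (left), 3′ UTR length in bases on a log axis (middle) and GC content of the transcript in percent (right), 1 point a gene. The points have a rho of 0.16 with coding length, go down with 3′ UTR length (rho -0.67) and up with GC content (rho 0.70).

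Paralogs gave the closest comparison within the family, since 14 pairs had both members reported and shared 64.9% to 78.8% of the bases of their aligned coding sequences. The changes that follow are log2 changes in heavy translation efficiency, and differences between members were not tested. RAB3A (1.00, transcript 1528 bases) lay above RAB3D (0.33, 4273 bases). RAB31 (0.37, 4055 bases), of trans-Golgi to endosome transport, lay above RAB22A (-0.22, 8670 bases). RAB11B (0.71, 1751 bases) lay above RAB11A (0.28, 4930 bases), and RAB1B (0.72, 2007 bases) above RAB1A (0.39, 2447 bases).

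In these pairs the shorter transcript had the higher value. RAB32 (1.24, 1217 bases) and its partner RAB38 (0.75, 1465 bases), both of lysosome-related organelles, followed this order too, as did RAB5C (0.64, 1912 bases) over RAB5A (0.25, 2536 bases) and RAB8A (0.45, 2827 bases) over RAB8B (0.17, 4943 bases). The shorter transcript had the higher value in 11 of the 14 pairs. These are not independent, since RAB5A, RAB5B and RAB5C form 3 of them. Over all genes the change also fell with transcript length (rho -0.55). The order failed in 3 pairs. RAB2A (0.40) lay above RAB2B (-0.28), whose transcript is the shorter, 2928 against 3848 bases. RAB5B (0.51, 5340 bases) also lay above the shorter RAB5A. The pairs RAB4A and RAB4B (0.65 and 0.68), RAB40B and RAB40C (0.59 and 0.51, the longer transcript, 3859 against 2717 bases, being the higher), RAB5B and RAB5C (0.51 and 0.64), RAB27A and RAB27B (0.29 and 0.19) and RAB9A and RAB9B (0.68 and 0.55) were within 0.14 of each other. How reads shared by near-identical stretches were assigned is not given in the sources used here.

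In control cells the median of the RAB mRNAs was lowest in the heavy pool, with little between heavy and light in 1 of the 2 cultures. The median log2 ratio to total mRNA of the 45 was 0.16 and 0.43 in the light, 0.78 and 0.10 in the moderate and 0.06 and -0.27 in the heavy pool of the 2 shNSi cultures, and the medians over all genes were between -0.02 and 0.19. The cultures lay furthest apart in the moderate pool. Heavy lay above light for 20 of 45 RAB mRNAs in culture 1 and 6 in culture 2. It was above light in both cultures for 2 RAB mRNAs and below it in both for 21, beside 44% and 41.4% of 15227 genes. RAB32 was the clearest of these, with ratios of 1.01 and 0.86 in the light and -0.96 and -0.86 in the heavy pool. In shDAP5 cells, 14 RAB mRNAs had heavy above light in both cultures and 18 below, beside 41.9% and 38.9% of 15299 genes.

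**Figure D4:**
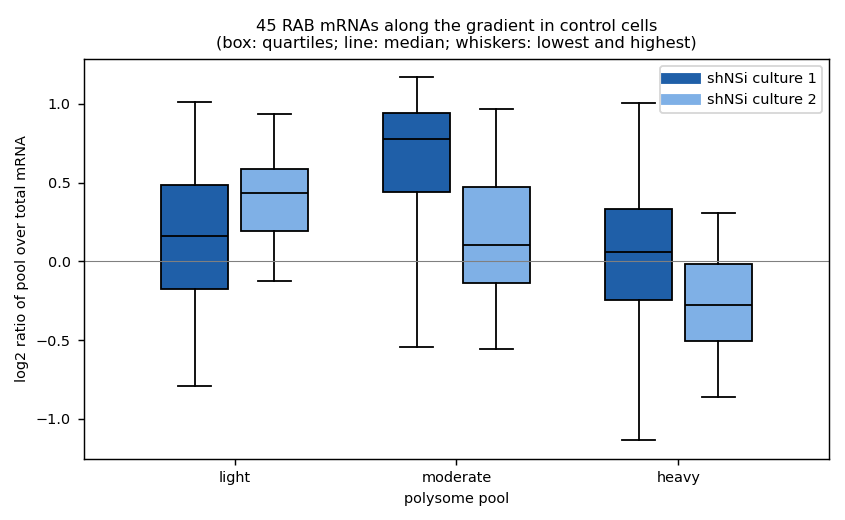
Log2 ratio of pool to total mRNA (vertical axis) of 45 RAB mRNAs in the light, moderate and heavy polysome pools of the 2 shNSi cultures, with boxes at the quartiles, lines at the medians and whiskers at the lowest and highest gene. The heavy medians, 0.06 and -0.27, are the lowest of each culture, and the moderate medians, 0.78 and 0.10, differ most between cultures.

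By title the shDAP5 cultures had no moderate pool, though their light libraries bore its code. The choice of control pool moved the family. With the shNSi moderate pool as control for heavy polysomes, the median change in heavy translation efficiency was -0.27, 5 of 45 lay above 0 (48.6% of all genes) and 0 passed, as did 0 of 15434 genes (edgeR). RAB32 was then at -0.16 and RAB24 at -0.063. With the shNSi heavy and moderate counts summed, the median was 0.14, 35 lay above 0 (57.5% of all genes) and 0 passed, as did 0 of 15386 genes. The plot of settings sets these beside the length offsets. Whether the heavy pools of both lines were cut at the same place in the gradient was not tested.

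**Figure D5:**
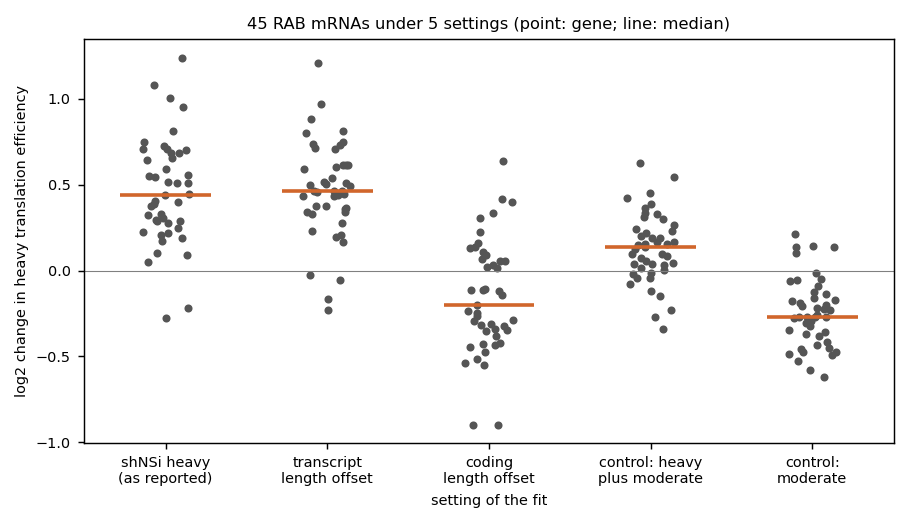
Log2 change in heavy translation efficiency (vertical axis) of 45 RAB mRNAs, 1 point a gene with the median as an orange line, under 5 settings of the fit. The medians are 0.44 as reported, 0.46 with a transcript length offset, -0.20 with a coding length offset, 0.14 with shNSi heavy plus moderate as control and -0.27 with shNSi moderate as control.

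The partners of the RABs had lower values than the RABs themselves, a direction that turned under the coding length offset, where the median was 0.12 over the 105 partner genes tested and -0.20 over the RABs. Guanine nucleotide exchange factors load RABs with GTP, GTPase activating proteins switch them off, GDP dissociation inhibitors and prenylation enzymes run the membrane cycle, and effectors bind the active form. In heavy translation efficiency, 0 of 105 tested genes on these 4 lists rose and 14 fell, where 4.85% and 8.23% of all genes did. By edgeR no gene of any kind was called with the shNSi moderate pool or the summed pools as control, with library size alone or without culture terms, so these 14 calls were lost there too. The membrane cycle genes had a median of -0.16 with 0 of 8 called, from GDI2 (-0.77) and CHM (-0.67) to RABGGTB (0.52) and RABAC1 (0.85). The exchange factors had -0.20, and 2 of 30 fell, GAPVD1 at -1.28 (adjusted p = 0.0179, edgeR) and MADD at -0.97 (adjusted p = 0.0480, edgeR). DENND4C was at -1.22 without passing, and RAB3IL1 (0.65) and MON1A (0.66) were highest.

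The GTPase activating proteins had a median of -0.26, and 5 of 31 fell, led by RAB3GAP1 (-1.44, adjusted p = 0.00849, edgeR) and RAB3GAP2 (-1.34, adjusted p = 0.0135, edgeR), the subunits of 1 complex. SGSM3 (0.86) and TBC1D7 (0.88) were highest. The effectors had the lowest median, -0.53, and 7 of 36 fell, led by USO1, the Golgi tether that RAB1 recruits (-1.54, adjusted p = 0.00750, edgeR), and FYCO1, which ties RAB7 to kinesin (-1.42, adjusted p = 0.0134, edgeR). RILP (0.60) and SYTL1 (0.93) were highest. Of the 105 genes, 100 had coding sequences longer than that of the longest RAB, with a median of 2406 bases. Under the coding length offset the list medians were 0.32 (exchange factors), 0.24 (GTPase activating proteins), -0.058 (membrane cycle) and -0.097 (effectors). There 4.22% of all genes were called, and 5 of the 105 passed as higher, the exchange factors SBF1 (1.03), DENND5A (0.99) and DENND4B (1.06) and the GTPase activating proteins TBC1D1 (1.02) and TBC1D25 (0.91), with adjusted p-values of 0.0223 to 0.0449 (edgeR), and 1 as lower, USO1 at -0.90 (adjusted p = 0.0326, edgeR). All but USO1 were named after their values were seen.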

How the data were processed

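The authors deposited whole-number read counts per gene symbol, without normalization, for the 14 libraries. The submitters' processing notes name STAR 2.6.0a, limma and the hg19 build, and the deposited table is named for featureCounts with the term rev, which no source used here explains. How overlapping genes were counted is not given in the sources used here. Genes were filtered with filterByExpr, scaled by TMM and tested by the quasi-likelihood test of edgeR 4.0.16 (R 4.3.3), with 1 fit of 4 libraries per fraction. For translation efficiency, 8 libraries were fitted with culture and fraction terms, and the effect of the shRNA on the fraction term was tested. The Benjamini-Hochberg method adjusted p-values over all genes tested, and SE was the log2 change over the square root of F. The fits were tested on simulated data. Library totals were 25899838 to 30795910, and 2 cultures a line limit the precision, since p-values measure the spread between these alone.

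Lengths, GC content and sequences came from GENCODE v29 (GRCh38), by symbol (37621 of 58434 matched), so no coordinates are given. Of the 45 RAB genes, 8 share exons with a gene on the same strand and 10 with one on the opposite strand. The RAB genes and all lists were chosen with earlier results of these data known. Named with values were EIF4G2, called RAB genes, the 3 lowest and 3 highest changes per comparison, paralog pairs, the highest and lowest level per coding length, and the 2 lowest and 2 highest genes of each partner list; RAB8A, RAB21, RAB40C, RAB27B, MADD, SBF1, DENND5A, DENND4B, TBC1D1, TBC1D25 and the members just around the minimum were named after their values were seen. Alternatives were DESeq2 1.42.0, limma 3.58.1 on quantile-normalized log2(CPM + 1), library size without TMM, no filter, a minimum of 10 counts in each library, a replicate block, a coding length offset (lowess span 0.3), all 14 libraries in 1 fit, no culture term, other shNSi pools as control, and each culture left out. The transcript length offset and the crossed block were added after seeing the data.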

Additional observations from a re-analysis of the deposited data

How the results depend on the processing

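Counts of called RAB mRNAs were 7 in heavy polysomes, 2 in heavy translation efficiency and 0 elsewhere. In heavy polysomes, with the share of all genes called in parentheses, they became 3 with DESeq2 (28%), 2 with all 14 libraries in 1 fit (23.7%), 1 with the coding length offset, a fall of RAB15 (12.1%), 11 with library size (25.5%), 2 without a filter (15.2%) and 0 with shNSi moderate (0.344%) or heavy plus moderate (2.77%) as control. In heavy translation efficiency they became 1 with DESeq2 (13.2%), limma (7.36%), no filter (6.91%) or the coding length offset, a fall of RAB22A (4.22%), and 0 with library size, no culture term, or either other control pool (0% of all genes in each). With shNSi moderate as control for light, 10 were called in light polysomes (25.5%) and 11 in light translation efficiency (27.5%).

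The median change in heavy polysomes moved from 0.54 to -0.13 (coding length offset), 0.78 (library size, under which the median of all genes was 0.34), 0.040 (summed pools) and -0.23 (moderate), with 17, 26 and 9 of 45 above 0 under the offset, the summed pools and moderate. In heavy translation efficiency it moved from 0.44 to -0.20, 0.65 (all genes 0.30), 0.14 and -0.27, with 17 above 0 under the offset and 5 with moderate. In light polysomes it moved from -0.13 to 0.011 (offset), -0.020 (library size) and -0.030 (limma). The cause of these moves was not tested.

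Leaving out 1 culture gave 0 to 2 calls in heavy polysomes, with 33 to 44 above 0 and medians of 0.30 to 0.71. It gave 0 to 14 calls in light polysomes, with 16 to 26 above 0 and medians of -0.29 to 0.12, 0 to 6 in heavy translation efficiency, with 32 to 44 above 0 and medians of 0.34 to 0.54, and 0 to 5 in light translation efficiency, with 14 to 23 above 0 and medians of -0.25 to 0.018. The shares of all genes called were 0.0134% to 23.7%, 0.0125% to 28.9%, 0.025% to 28.5% and 0% to 12.3% in these 4 comparisons. The lone culture of a line is then assumed to vary like the others. With moderate as control, single changes reversed in heavy polysomes for RAB20 (-0.070), RAB32 (-0.43), RAB5B (-0.049) and RAB9A (-0.45), and in heavy translation efficiency for RAB24 (-0.063) and RAB32 (-0.16).

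The labels give no pairing between the lines beyond the replicate number. Deviations of same-numbered cultures correlated at -0.13 in total mRNA, 0.06 in heavy polysomes and -0.31 in heavy translation efficiency over 16235 genes. Whether cultures of the lines were paired was not tested. Under a replicate block, 10 RAB mRNAs were called in heavy polysomes (33% of all genes) and 0 in heavy translation efficiency (4.48%). With the pairing crossed, 5 were called in heavy translation efficiency (26.9% of all genes) and 0 in total mRNA. By lowest count in any library, depth limits RAB43 (14) and RAB3A (28) most.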
